A study of Bos taurus with 60 samples.

Results

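Transcript levels of 5 genes of fat synthesis and fat uptake were followed in the endometrium of 60 beef heifers that differed in supplementation with n-3 polyunsaturated fatty acids (n-3 PUFA) and in plane of nutrition. The genes were chosen by identifier, 5 of the 24616 genes in the count table, and comprised FASN (ENSBTAG00000015980), SCD (ENSBTAG00000045728), ACACA (ENSBTAG00000017567), SREBF1 (ENSBTAG00000007884) and LPL (ENSBTAG00000012855). The table lists Ensembl identifiers without symbols, and the symbols used here came with the list of identifiers. All 5 genes passed the filter on low counts, which kept 14363 genes for testing. Each of them had at least 10 counts in every heifer.

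Fatty acids are built from acetyl-CoA in the cytosol. Acetyl-CoA carboxylase alpha, the product of ACACA, makes malonyl-CoA, fatty acid synthase (FASN) extends the chain to palmitate, and stearoyl-CoA desaturase (SCD) places a double bond in the saturated product. SREBF1 encodes the transcription factor SREBP-1, which activates genes of this route and whose activity polyunsaturated fatty acids are known to lower, while LPL encodes lipoprotein lipase, which frees fatty acids from circulating triglyceride so that tissues can take them up.

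The heifers were nulliparous crossbred beef animals with synchronised oestrous cycles. For 30 days before insemination they received a concentrate-based diet with an n-3 PUFA-enriched product (PUFA) or without it (CON). The methods of the study state that the control diet carried a rumen-protected source of palmitic acid in its place, so that each supplement comparison here sets n-3 PUFA against palmitic acid and not against a diet free of added fat. For 16 days afterwards they stayed on the high plane of nutrition or were restricted to a low plane, and the study's methods state that the lipid supplement continued on the low plane. Endometrium from the side of the corpus luteum was taken at slaughter on day 16. The 4 groups were CON_High (n = 14), CON_Low (n = 14), PUFA_High (n = 17) and PUFA_Low (n = 15). Each held pregnant and non-pregnant heifers, but the labels do not give the status of single heifers, so it could not be used here. The group sizes are those of the sample labels, whereas the submitters' description of the treatment gives the reverse for n-3 PUFA heifers, 15 as PUFA_High and 17 as PUFA_Low. The group sizes in the methods of the study match the labels, while the pregnant and non-pregnant heifers listed there add up to the reverse. All values below follow the labels, and with PUFA_High and PUFA_Low exchanged every difference between those 2 groups would turn its sign.

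Libraries held 9635801 to 13943813 counts each. The share of a library's counts that fell on the 100 genes most abundant over all libraries was 25.8% ± 3.31 (SD, n = 15) in PUFA_Low heifers, against 20.8% ± 1.91 (n = 17) in PUFA_High, 21.8% ± 2.15 (n = 14) in CON_Low and 22.0% ± 2.99 (n = 14) in CON_High heifers. This share therefore moved with the group in which most of the differences below were found, and its relation to each gene is given further on. Lists of further lipid genes and of cell type markers could not be applied without symbols, so the tissue was not checked against its markers. In bulk tissue, fewer cells that express a gene and less of its RNA per cell cannot be told apart.

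FASN was well expressed in every heifer, and its lowest levels were found in the PUFA_Low group. Levels are given as CPM, counts scaled to a common library size, which compare heifers for 1 gene and not genes with each other, since gene length was not taken into account. FASN ranged from 71.4 to 215 CPM in PUFA_Low heifers with a median of 135, and from 126 to 218 CPM in PUFA_High heifers with a median of 186. The control groups were centred between 154 CPM (CON_Low, range 121 to 230) and 193 CPM (CON_High, range 98.1 to 270). The ranges of the n-3 PUFA groups overlapped, although 5 of 15 PUFA_Low heifers lay below every PUFA_High heifer and 12 of 15 below the PUFA_High median.

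ACACA, whose product carries out the committed step before FASN, had its lowest median in the same group. It ranged from 41.4 to 129 CPM in PUFA_Low heifers with a median of 96.5. The medians were 123 CPM in PUFA_High (range 73.1 to 176), 125 CPM in CON_Low (range 97.9 to 148) and 110 CPM in CON_High heifers (range 48.8 to 165). Of the 15 PUFA_Low heifers, 10 had less ACACA than any CON_Low heifer. The CON_Low group had the narrowest ACACA levels of the 4 groups, at 124 CPM ± 15.9 (SD, n = 14).

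SCD varied more from heifer to heifer than the synthesis genes upstream of it. Its medians were 24.8 CPM in PUFA_Low (range 9.26 to 58.0), 39.9 CPM in PUFA_High (range 18.3 to 61.0), 25.4 CPM in CON_Low (range 14.5 to 42.5) and 28.6 CPM in CON_High heifers (range 13.8 to 60.9). The low median of PUFA_Low was thus shared by CON_Low, and the PUFA_High group stood above the others. No group was separate from another.

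SREBF1, the regulator, had the smallest spread. It ranged from 70.1 to 125 CPM in PUFA_Low heifers with a median of 90.1, and 14 of these 15 heifers lay below the PUFA_High median of 113 CPM. The PUFA_High range was 71.0 to 201 CPM. Control medians were 108 CPM in CON_Low (range 81.4 to 144) and 102 CPM in CON_High heifers (range 70.2 to 149).

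LPL was the least counted of the 5 genes and the most uneven. Its medians were 4.40 CPM in PUFA_Low (range 1.66 to 8.85), 6.03 CPM in PUFA_High (range 0.973 to 99.1), 3.70 CPM in CON_Low (range 1.52 to 12.3) and 5.14 CPM in CON_High heifers (range 1.46 to 12.7). The means of the n-3 PUFA groups lay farther apart than their medians, with 15.6 CPM ± 26.9 (SD, n = 17) in PUFA_High heifers and 4.78 CPM ± 2.15 (SD, n = 15) in PUFA_Low heifers. The PUFA_High mean was set by 2 heifers, described below.

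**Figure D1:**
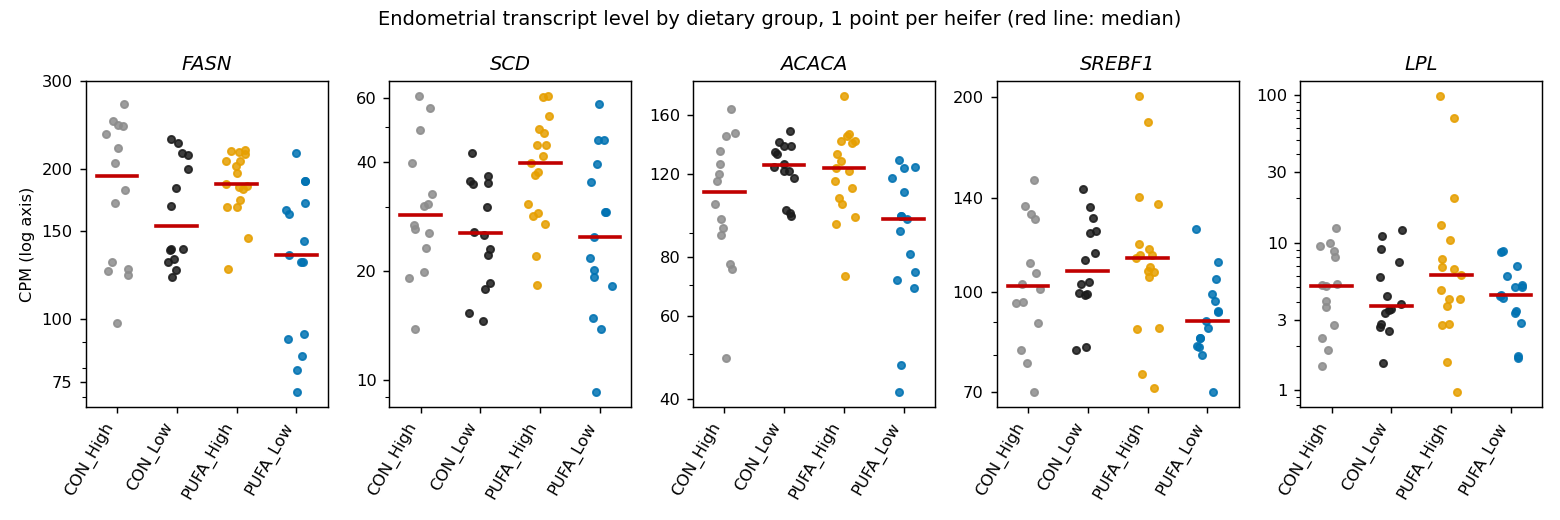
Level of each gene in CPM (log axis) in the 4 dietary groups, with 1 point per heifer and a red line at the group median. PUFA_Low heifers extend lowest in FASN, with 5 of 15 under every PUFA_High heifer, and 2 PUFA_High heifers stand far above the rest in LPL.

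The within-group SD of log2 CPM was 0.40 for FASN, 0.59 for SCD, 0.38 for ACACA, 0.30 for SREBF1 and 1.14 for LPL. Counting error alone would give an SD between 0.033 for FASN and 0.196 for LPL at these counts. The rest of the spread includes differences between heifers and between dissections, extractions and libraries, which cannot be told apart here. Set beside the 1000 genes closest to each in abundance, SREBF1 was ordinary, with 55% of such genes less variable. SCD and LPL were among the more variable genes, with 93.9% and 97% of genes of like abundance below them.

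The comparison of low with high plane among n-3 PUFA heifers asked whether restriction after insemination altered these genes in supplemented animals. All 5 genes were at lower abundance on the low plane at an adjusted p-value under 0.10, where 16.3% of all genes tested were lower and 31.3% differed in either direction. The median log2 fold change of the 5 genes was -0.46, beside -0.03 over all genes tested. Only LPL also passed the fold change of 1.5 that defined a differentially expressed gene (DEG), a definition that 3.17% of all genes met in the lower direction. FASN fell by 0.46 on the log2 scale (SE 0.138, 95% interval -0.74 to -0.18, edgeR's quasi-likelihood test, adjusted p = 0.0119), which is 1.38-fold. ACACA fell by 0.43 (SE 0.129, interval -0.69 to -0.17, edgeR adjusted p = 0.0120). These 2 enzymes of fatty acid synthesis therefore differed to a similar extent.

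SCD fell by 0.48 (SE 0.202, interval -0.88 to -0.08, edgeR adjusted p = 0.0742), as large a difference as that of FASN but less certain. Without PUFA_Low replicate 11, the heifer of its group with most SCD and FASN, SCD became a DEG at -0.59, whereas its adjusted p-value passed 0.10 without any 1 of 10 heifers (PUFA_Low replicates 2, 3, 6, 7, 8, 10 and 12, and PUFA_High replicates 2, 4 and 10), reaching 0.145 without PUFA_Low replicate 10. SREBF1 fell by 0.34 (SE 0.108, interval -0.56 to -0.12, edgeR adjusted p = 0.0183). LPL fell by 1.70 (SE 0.441, interval -2.58 to -0.82, edgeR adjusted p = 0.00389), or 3.25-fold, the widest interval of the set. With limma-voom the LPL difference was -0.64 and was not significant (limma adjusted p = 0.280).

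Library codes in the labels begin with 1 of 6 prefixes of unstated meaning, each of which holds heifers of every group. Within prefixes, the mean log2 CPM of PUFA_Low heifers was below that of PUFA_High heifers in 6 of 6 for ACACA and for SREBF1, and in 5 of 6 for FASN, SCD and LPL. With the share of counts on the 100 most abundant genes as a covariate, none of the 5 genes passed an adjusted p-value of 0.10 in this comparison. Fitted differences were then -0.11 for FASN, -0.31 for SCD, 0.01 for ACACA, -0.06 for SREBF1 and -1.36 for LPL, with edgeR adjusted p-values between 0.326 and 0.988. With the share on each library's own 100 most abundant genes in its place, LPL stayed a DEG at -1.78 (edgeR adjusted p = 0.0824) and the other 4 genes did not pass. Over all genes tested, DEG numbered 806 without the covariate and 42 with it. The share and the PUFA_Low group moved together, and their parts in these values cannot be told apart.

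**Figure D2:**
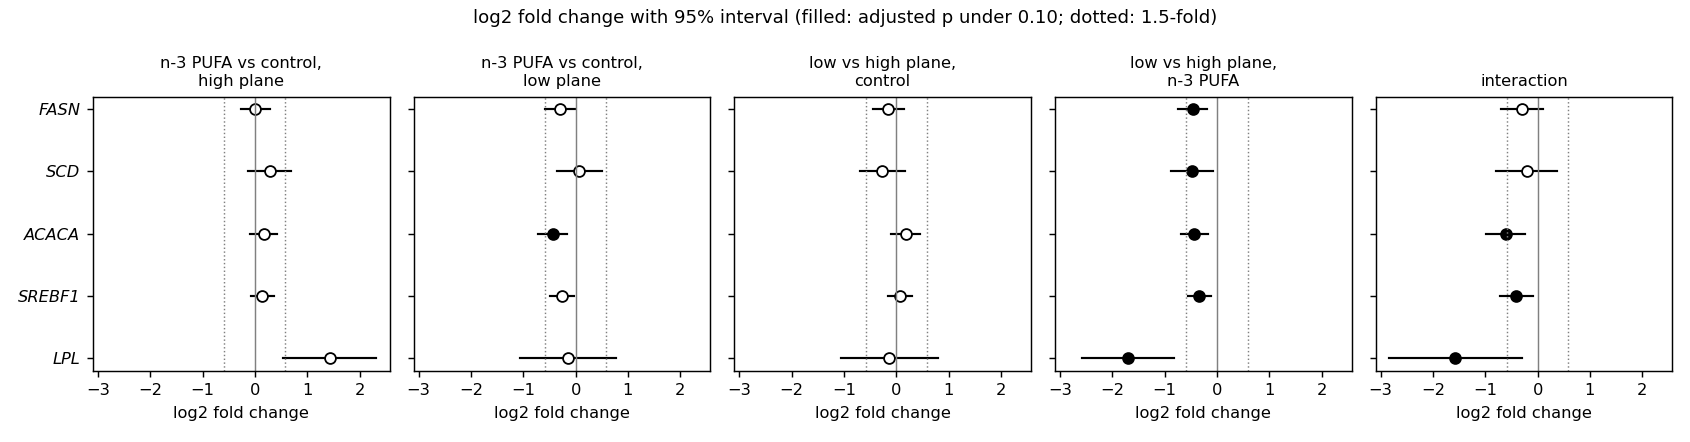
Fitted log2 fold changes of the 5 genes in 5 comparisons (x axis), with 95% intervals as bars and filled points at an edgeR adjusted p-value under 0.10. All 5 genes are filled and negative between planes in n-3 PUFA heifers, from -0.34 for SREBF1 to -1.70 for LPL, and none is filled between planes in control heifers.

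Among control heifers the plane of nutrition gave no significant difference in any of the 5 genes. Low against high plane, the log2 fold change was -0.15 for FASN (interval -0.45 to 0.14), -0.27 for SCD (interval -0.70 to 0.16) and 0.18 for ACACA (interval -0.09 to 0.45). It was 0.07 for SREBF1 (interval -0.16 to 0.30) and -0.13 for LPL (interval -1.05 to 0.79). Adjusted p-values by edgeR were between 0.911 and 0.989. No gene of the 14363 tested was called here by edgeR or DESeq2, that is 0%, while the unadjusted p-value was under 0.05 for 705 genes (4.91%). The intervals of SCD and LPL still held differences as large as the 1.5-fold limit.

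Whether the plane effect differed between supplemented and control heifers was tested as the interaction. In this test 3 of the 5 genes passed an adjusted p-value of 0.10, all with a more negative plane effect in n-3 PUFA heifers, where 8.89% of all genes tested did so. ACACA gave -0.61 (SE 0.188, interval -0.98 to -0.23, edgeR adjusted p = 0.0259), from a plane effect of 0.18 in control and -0.43 in n-3 PUFA heifers. SREBF1 gave -0.41 (SE 0.158, interval -0.72 to -0.09, edgeR adjusted p = 0.0747). SREBF1 missed the threshold without any 1 of 9 heifers (CON_Low replicates 5 and 12, CON_High replicates 8 and 11, PUFA_Low replicates 5, 7 and 12, and PUFA_High replicates 2 and 11), with SREBF1 adjusted p-values up to 0.131. It also missed it with library code prefix as a block (-0.39, edgeR adjusted p = 0.104) and with no filter on low counts (-0.40, edgeR adjusted p = 0.102). LPL gave -1.57 (SE 0.633, interval -2.84 to -0.31, edgeR adjusted p = 0.0843). With limma-voom LPL was at -0.51 (limma adjusted p = 0.627), and with library code prefix as a block it was at -1.31 (edgeR adjusted p = 0.178).

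ACACA and LPL also exceeded 1.5-fold in the interaction, a definition met by 3.58% of all genes in this direction. ACACA did so narrowly, at 1.52-fold, and fell just under 1.5-fold without any 1 of 9 heifers (CON_High replicates 8, 9 and 11, PUFA_Low replicates 7, 8, 10, 12 and 15, and PUFA_High replicate 17), its adjusted p-value staying at or below 0.0440. For FASN and SCD the difference between the plane effects was not significant, at -0.31 (interval -0.71 to 0.09, edgeR adjusted p = 0.314) and -0.21 (interval -0.80 to 0.38, edgeR adjusted p = 0.669). It was therefore not shown that the lower FASN and SCD of restricted heifers belonged to supplemented animals. The median of the 5 genes was -0.41, beside -0.02 over all genes. With the share of counts on the 100 most abundant genes as a covariate, ACACA was at -0.20, SREBF1 at -0.11 and LPL at -1.22, none of them significant (edgeR adjusted p = 1.00 for each).

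On the low plane, n-3 PUFA supplementation was associated with less ACACA and, with all 4 groups in the fit, with no significant difference in the other 4 genes. ACACA fell by 0.44 relative to CON_Low heifers (SE 0.135, interval -0.71 to -0.17, edgeR adjusted p = 0.0269), where 7.74% of all genes were lower at this threshold and 17.5% differed in either direction. The difference was 1.36-fold and thus below the DEG limit, which 2.57% of all genes passed. FASN was at -0.30 (interval -0.59 to -0.01, edgeR adjusted p = 0.166) and SREBF1 at -0.26 (interval -0.49 to -0.03, edgeR adjusted p = 0.123). FASN passed the threshold without PUFA_Low replicate 11, at -0.36 (edgeR adjusted p = 0.0810), and SREBF1 without any 1 of 5 heifers (CON_Low replicates 2 and 4, PUFA_Low replicates 3 and 13, and PUFA_High replicate 2). SREBF1 also passed when the fit held the 2 low-plane groups alone (-0.26, edgeR adjusted p = 0.0446) and without the 2 PUFA_High heifers highest in LPL (-0.27, edgeR adjusted p = 0.0618). SCD was at 0.08 (interval -0.35 to 0.50) and LPL at -0.14 (interval -1.05 to 0.77). Within all 6 prefixes the PUFA_Low mean was below the CON_Low mean for ACACA, FASN and SREBF1, while SCD was lower in only 2 and LPL in 3. The PUFA_Low heifers of this comparison are the same animals as in the comparison of planes, and the values of the comparisons are not independent. With the share covariate ACACA was at -0.10 on the low plane and no longer significant (edgeR adjusted p = 1.00). Nor was it significant with PUFA_High and PUFA_Low exchanged, at -0.01 (edgeR adjusted p = 0.991).

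On the high plane, none of the 5 genes differed significantly between n-3 PUFA and control heifers, and neither did any other gene (0% of 14363 by edgeR, smallest adjusted p = 0.122, with 2 genes called by DESeq2 and 10.5% at an unadjusted p-value under 0.05). FASN was at 0.01 (interval -0.27 to 0.29), ACACA at 0.17 (interval -0.09 to 0.43) and SREBF1 at 0.15 (interval -0.07 to 0.37), so that changes of 1.5-fold lay outside their intervals. SCD was at 0.29 (interval -0.12 to 0.70). LPL was at 1.43 (SE 0.445, interval 0.54 to 2.32), with an unadjusted p of 0.0021 by edgeR that did not hold after adjustment over all genes (adjusted p = 0.352). Averaged over both planes the supplement gave -0.15 for FASN, 0.18 for SCD, -0.14 for ACACA, -0.06 for SREBF1 and 0.64 for LPL, with adjusted p-values by edgeR between 0.560 and 0.864. In this average 0% of genes were called by edgeR or DESeq2 and 8.79% had an unadjusted p-value under 0.05.

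The LPL values rested on 2 PUFA_High heifers. Replicate 2 had 99.1 CPM (1138 counts) and replicate 11 had 69.9 CPM (768 counts), and their library codes carried different prefixes. The next highest of the 60 heifers, PUFA_High replicate 7, had 20.3 CPM, and the median of the 58 others was 4.39 CPM. The lower of the 2 thus had 3.45 times the LPL of replicate 7, the highest of the others.

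The same 2 heifers were also the highest and second highest in SREBF1, with 201 and 183 CPM. In the synthesis enzymes they did not stand apart. FASN was 218 CPM in replicate 2 and 203 CPM in replicate 11, 9th and 19th of 60. SCD was 53.5 and 36.9 CPM, 6th and 20th, and ACACA was 107 and 97.3 CPM, 36th and 44th. Across the genes tested, 675 (4.70%) were higher in both of these heifers than in any other, and 40 were more than 3 times higher than in any other heifer, as LPL was. Such counts were not made for other pairs of heifers. Their shares of counts on the 100 most abundant genes were 18.4% and 21.3%, within the range of their group. On each library's own 100 most abundant genes their shares were 21.4% and 23.6%. The gap between these 2 measures was wider than in any other PUFA_High heifer, so their most abundant genes differed more from the common 100.

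Without these 2 heifers, LPL in the PUFA_High group was 6.40 CPM ± 5.03 (SD, n = 15). The plane effect on LPL in n-3 PUFA heifers was then -0.42 (SE 0.320, edgeR adjusted p = 0.364), its interaction -0.28 (edgeR adjusted p = 0.722) and its difference from controls on the high plane 0.14 (edgeR adjusted p = 0.909). SREBF1 went from -0.34 to -0.21 between planes (edgeR adjusted p = 0.104) and from -0.41 to -0.28 in the interaction (edgeR adjusted p = 0.179). SCD stayed at -0.45 between planes with an adjusted p-value of 0.113 by edgeR. FASN (-0.44, edgeR adjusted p = 0.0236) and ACACA (-0.46, edgeR adjusted p = 0.0102) remained significant between planes, and the ACACA interaction remained a DEG at -0.64 (edgeR adjusted p = 0.0246). With either heifer left out alone, LPL stayed a DEG between planes, at -1.12 without replicate 2 and -1.35 without replicate 11. Its interaction was lost without either one, at -0.99 (edgeR adjusted p = 0.247) and -1.22 (edgeR adjusted p = 0.164), and also, at -1.54 to -1.42, without any 1 of 14 other heifers (CON_Low replicates 1, 3, 6 and 13, CON_High replicates 1, 3, 9, 11 and 12, and PUFA_Low replicates 1, 5, 6, 14 and 15).

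**Figure D3:**
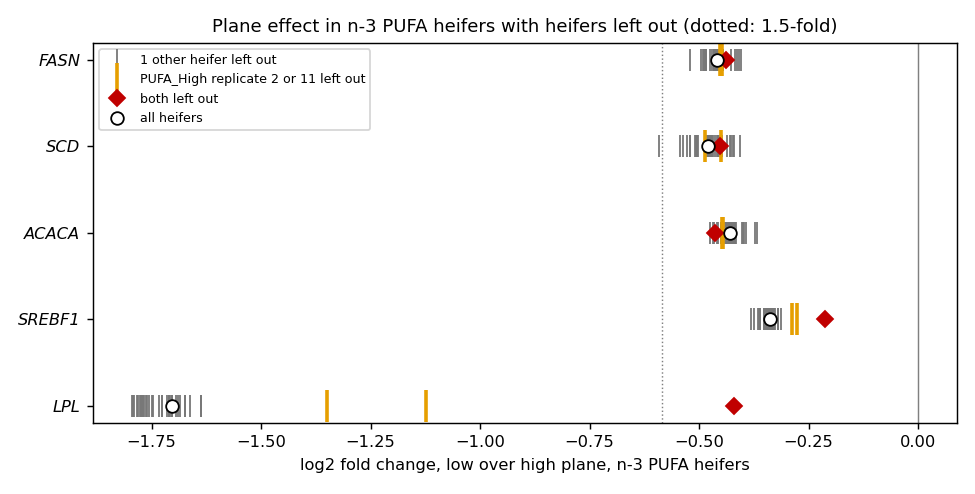
Fitted log2 fold change of low over high plane in n-3 PUFA heifers (x axis) with all heifers (open circles), with each heifer left out in turn (ticks, the 2 heifers highest in LPL in orange) and with both of these left out (diamonds). LPL moves from -1.70 to -0.42 when both are left out, SREBF1 moves from -0.34 to -0.21, and FASN, SCD and ACACA stay between -0.59 and -0.37 throughout.

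How the genes varied together was examined across the 60 heifers, after each dietary group's mean was taken away from log2 CPM. Of the 10 pairs, 4 were correlated at an adjusted p-value under 0.05 (permutation within groups, two-sided, adjusted over the 10 pairs). FASN and SCD, which act in sequence, were the closest pair (r = 0.592, permutation p = 1e-05, the smallest the permutations can give before adjustment, adjusted p = 0.0001, and Spearman's rho = 0.573). FASN and ACACA followed (r = 0.540, adjusted p = 0.0004, permutation test, rho = 0.438), and FASN and SREBF1 were weaker (r = 0.370, adjusted p = 0.00487, permutation test, rho = 0.372). Without the 2 heifers farthest from the median in FASN, r was 0.577 with SCD, 0.459 with ACACA and 0.336 with SREBF1. SCD and ACACA, the enzymes on either side of FASN, were not correlated with each other (r = 0.166, adjusted p = 0.404, permutation test, rho = 0.0651). ACACA and SREBF1 gave r = 0.168 (adjusted p = 0.380, permutation test), but r = 0.410 on CPM without TMM scaling (adjusted p = 0.00248, permutation test) and r = -0.233 with the share of counts on the 100 most abundant genes removed (adjusted p = 0.126, permutation test).

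SREBF1 and LPL had r = 0.366 (adjusted p = 0.0373, permutation test), but Spearman's rho was 0.127 (adjusted p = 0.586). Without the 2 heifers farthest in SREBF1, PUFA_High replicates 2 and 11, r was 0.0693, so this r rested on those animals. With library code prefix also removed, r was 0.426 (adjusted p = 0.00555, permutation test) and rho was 0.322 (adjusted p = 0.0378, permutation test). That setting was not run without the 2 heifers. Among all 14362 other genes ranked by r, SCD was 203rd for FASN and ACACA was 403rd, while LPL was 9001st. FASN was 118th for SCD, and SREBF1 was 836th for LPL. The genes that ranked first could not be named without symbols.

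**Figure D4:**
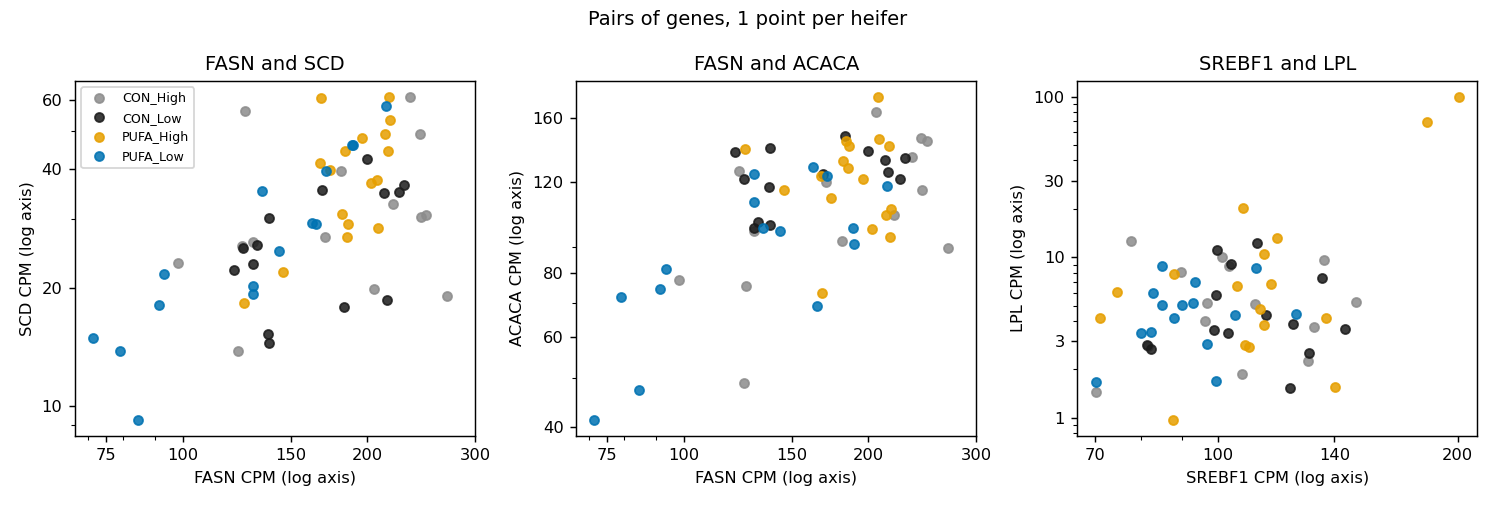
CPM of FASN against SCD, FASN against ACACA and SREBF1 against LPL on log axes, with 1 point per heifer coloured by dietary group. FASN and SCD rise together (r = 0.592 within groups), most closely in PUFA_Low (r = 0.900) and least in CON_High heifers (r = 0.255). The 2 points at the upper right of SREBF1 and LPL carry the relation of those genes, which has r = 0.0693 without them.

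By group, FASN and SCD gave r = 0.900 in PUFA_Low (n = 15), 0.633 in PUFA_High (n = 17), 0.472 in CON_Low (n = 14) and 0.255 in CON_High heifers (n = 14). FASN and ACACA gave r = 0.732 in PUFA_Low, -0.0168 in PUFA_High, 0.436 in CON_Low and 0.580 in CON_High heifers. SCD and ACACA were positively related in PUFA_Low (r = 0.655) and negatively in PUFA_High heifers (r = -0.520). These are descriptions of small groups, and the differences between groups were not tested.

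The 5 PUFA_Low heifers with the least FASN were also below the group medians of SCD (24.8 CPM) and ACACA (96.5 CPM). They were not the lowest throughout, as replicate 15, with 165 CPM of FASN, had 68.9 CPM of ACACA. Replicate 12 had 71.4 CPM of FASN, 14.9 of SCD and 41.4 of ACACA, and replicate 10 had 84.5 of FASN, 9.26 of SCD and 47.3 of ACACA, so that the lowest ACACA and the lowest SCD of all 60 heifers were found in these animals. Replicate 8 had 79.1, 13.8 and 71.7 CPM, replicate 7 had 91.5, 18.1 and 74.5 CPM, and replicate 2 had 93.4, 21.7 and 81.4 CPM of FASN, SCD and ACACA, respectively. SREBF1 in these 5 heifers lay between 82.7 and 93.6 CPM, which was not extreme for the group. LPL lay between 4.21 and 8.85 CPM, the last of which was the highest LPL of the PUFA_Low group. Their shares of counts on the 100 most abundant genes were 24.9% to 30.6%. A high share did not always go with low FASN, as PUFA_Low replicate 1 had a share of 30.4% and 189 CPM of FASN.

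Within groups, heifers with a higher share of counts on the 100 most abundant genes had less ACACA (r = -0.680, permutation p = 1e-05, the smallest possible before adjustment, adjusted p = 5e-05 over 5 genes, rho = -0.631). The same held for FASN (r = -0.516, adjusted p = 0.000317, permutation test, rho = -0.493) and SREBF1 (r = -0.469, adjusted p = 0.000175, permutation test, rho = -0.442). SCD (r = -0.196, adjusted p = 0.219, permutation test, rho = -0.225) and LPL (r = -0.130, adjusted p = 0.270, permutation test, rho = -0.123) showed no significant relation on this scale. On CPM without TMM scaling SCD did pass (r = -0.335, adjusted p = 0.0237, permutation test). On that scale a higher share lowers the CPM of genes outside the 100 by construction. The r of all genes was not computed there, so no conclusion is drawn from it. Without the 2 heifers farthest from the median share, r was -0.613 for ACACA, -0.436 for FASN and -0.382 for SREBF1. The median r of all genes tested with this share was -0.03, and 2.38% of genes had a lower r than ACACA, 9.28% a lower r than FASN and 12.1% a lower r than SREBF1. With the share removed from both genes of a pair, FASN and SCD stayed correlated (r = 0.584, adjusted p = 0.0001, permutation test) and the other 9 pairs did not pass the threshold.

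**Figure D5:**
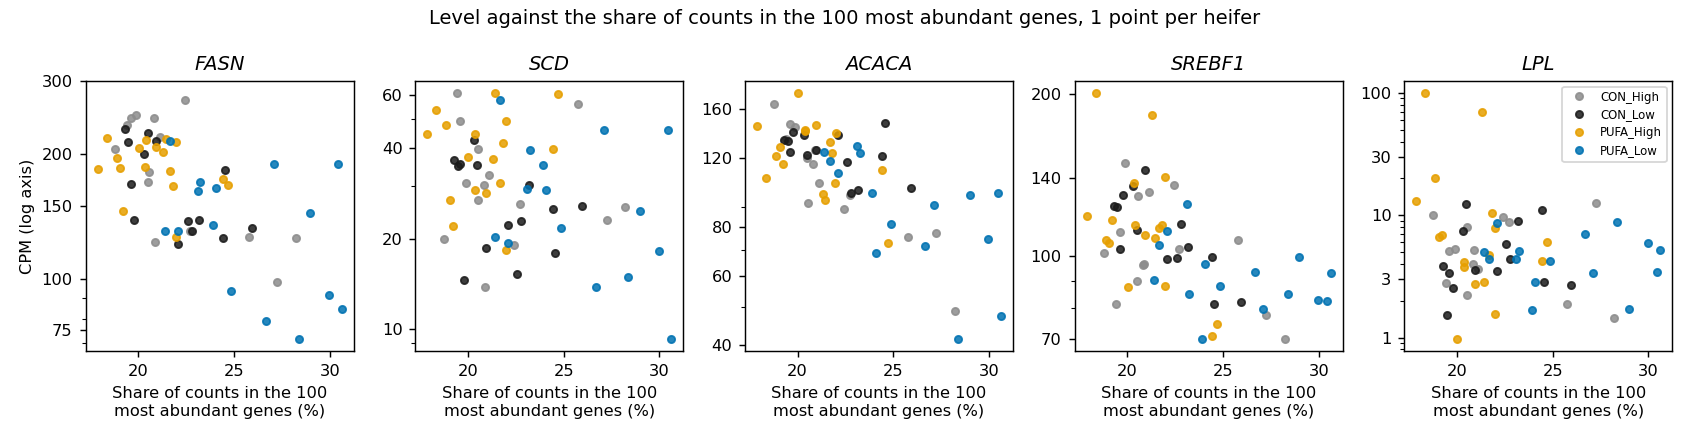
CPM of each gene (log axis) against the percentage of a library's counts on the 100 most abundant genes, with 1 point per heifer coloured by dietary group. ACACA falls most evenly with this share (r = -0.680 within groups), and PUFA_Low heifers reach the highest shares, up to 30.6%.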

How the data were processed

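The authors sequenced endometrial RNA of 60 heifers as single-end reads, aligned it with TopHat2 2.0.9 to the UMD3.1 bovine genome, counted reads per gene with HTSeq 0.5.4p5 and deposited the raw counts in 1 table, without normalization (tools per the submitters' processing notes). The strand setting of the counting is not given in the sources used here. All 60 columns were matched to samples by name, and 0 were left unassigned. Total counts per library, 9635801 to 13943813, set the counting error given in the report, which covers sampling of reads only.

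Genes were filtered with filterByExpr at its defaults (0.865 CPM, with the required number of heifers derived from the smallest group, n = 14). This kept 14363 genes, and counts were scaled by TMM. All heifers entered 1 quasi-likelihood fit in edgeR 4.0.16 (R 4.3.3), with a mean for each of the groups. Benjamini-Hochberg adjustment was over all genes tested. DEG were genes that passed both an adjusted p of 0.10 and a 1.5-fold change, and the study's stated false discovery rate of 0.001 was an alternative. The standard error was the log2 fold change over the square root of F. Log2 CPM used a prior count of 2. Correlations used 100000 permutations within groups (Python 3.11.15). On simulated counts for PUFA_Low against PUFA_High over 14363 genes, 88 of 100 genes changed 2-fold and 95 of 100 changed 3-fold were called, with 8 unchanged genes called. No change below 2-fold was simulated, so these rates do not cover the smaller differences of FASN, SCD, ACACA and SREBF1. Single extreme heifers, as in LPL, were not simulated either.

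The 5 genes named in every comparison and the gene lists were chosen with earlier results of these data known. Lists of further lipid genes and of cell type markers were not used, since 0 of the 37063 genes in the name table (assembly ARS-UCD2.0) carry an Ensembl identifier. No sequences are given, since none were available, and no coordinates, since the name table is of another assembly than the counts. The smallest chi-square per gene between libraries of 1 group was 17.6 over 423 pairs, so no library was taken as a repeat. Alternatives were other scale factors, DESeq2 1.42.0, limma-voom (limma 3.58.1), robust estimation, other filters and thresholds, the compared groups alone, blocks for replicate number and library code prefix, covariates for library properties, an exchange of the n-3 PUFA planes and each heifer left out. Leaving out the 2 heifers with most LPL, a share over each library's own 100 most abundant genes, and 3 variants of the correlations (without the 2 heifers farthest on the y axis, without the 2 farthest in share, and CPM without TMM for the share) were added after seeing the data.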

Additional observations from a re-analysis of the deposited data

Results flagged for a closer look

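For 3 of the 5 genes, a test of whether the plane effect depended on the supplement (the interaction, low over high plane in PUFA minus that in CON heifers, on the log2 scale) passed an edgeR adjusted p-value of 0.10. ACACA had an interaction of -0.61, with medians of 96.5 CPM in PUFA_Low, 123 in PUFA_High, 125 in CON_Low and 110 in CON_High heifers. SREBF1 had an interaction of -0.41, with medians of 90.1, 113, 108 and 102 CPM in the same order, and was no longer significant without the PUFA_High replicates 2 and 11 (-0.28, edgeR adjusted p = 0.179) or with library code prefix as a block (-0.39, edgeR adjusted p = 0.104). LPL had an interaction of -1.57, with medians of 4.40, 6.03, 3.70 and 5.14 CPM, and was no longer significant without the same heifers (-0.28, edgeR adjusted p = 0.722). None of the 3 genes was significant with the share of counts on the 100 most abundant genes as a covariate (ACACA -0.20, SREBF1 -0.11, LPL -1.22). The same held with the n-3 PUFA planes exchanged (edgeR adjusted p = 0.521 for ACACA, 0.385 for SREBF1 and 0.105 for LPL).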

How the results depend on the processing

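Among the 5 genes, 1 was a DEG between PUFA_Low and PUFA_High (LPL), 2 in the interaction (ACACA and LPL) and 0 on the low plane between supplements. The count between planes was 0 with limma-voom (LPL at -0.64, adjusted p = 0.280), at an adjusted p-value under 0.001, with the share of the 100 most abundant genes as covariate and without the 2 PUFA_High heifers highest in LPL, 5 at any fold change, and 1 to 2 with each heifer left out. The interaction count was 1 under upper-quartile factors (LPL), under limma-voom, no filter and without those 2 heifers (ACACA), and under the exchange of planes, where the gene was FASN (adjusted p = 0.0853) and neither ACACA (0.521) nor LPL (0.105) passed. It was 0 at an adjusted p-value under 0.001, with a block for library code prefix, with either share or with log2 total count as covariate, and 0 to 2 with each heifer left out. On the low plane it was 1 at any fold change. Of the 10 pairs, 4 were correlated, 1 with the share removed, 3 without the 2 farthest heifers on either axis, and 5 without TMM, where ACACA with SREBF1 was added. The cause of these changes was not tested.

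Same-numbered heifers did not deviate together (mean r = -0.0531, against 0.00459 for different numbers, and 2 heifers closest to their own number), so no sign of pairing by number was seen. The methods of the study state that heifers were blocked within supplement when planes were assigned. The labels name no such blocks, and these values cannot exclude them. With a replicate block, the interaction count was 1 (ACACA) and LPL had -0.91 (adjusted p = 0.406).

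Some signs turned. FASN on the high plane was -0.0069 under upper-quartile factors, -0.047 and -0.040 with the share and own-share covariates, -0.024 without the 2 heifers and from -0.047 to 0.055 with each heifer left out. SCD on the low plane was -0.012 with limma-voom and from -0.037 to 0.15 with each heifer left out. LPL on the low plane was 0.054 with the replicate block, 0.079 with the share covariate and from -0.23 to 0.0088 with each heifer left out, and between planes in controls -0.28 to 0.0093. LPL averaged over planes went from 0.64 to -0.0022 without the 2 heifers. With the share and own-share covariates, respectively, ACACA between PUFA_Low and PUFA_High went from -0.43 to 0.0092 and 0.0071, the FASN interaction from -0.31 to 0.044 and 0.029, and the averages to 0.00054 and 0.0070 for ACACA and 0.024 and 0.011 for SREBF1. Exchanging the planes of n-3 PUFA heifers gave, in the order FASN, SCD, ACACA, SREBF1 and LPL, 0.46, 0.48, 0.43, 0.34 and 1.70 between planes, 0.61, 0.75, 0.25, 0.27 and 1.83 in the interaction, and -0.45, -0.19, -0.26, -0.19 and -0.27 on the high plane, with 0.16, 0.078 and 1.56 for FASN, SREBF1 and LPL on the low plane. Of the correlations, ACACA with LPL was 0.0311 without TMM, and with the share removed SCD with SREBF1 was -0.0423 and ACACA with SREBF1 was -0.233. Depth limits LPL most, with as few as 12 counts in a library.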
